A study of Mus musculus with 8 samples.

Results

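The dorsal and the ventral surface of the mouse tongue were compared at matched depth. The comparison took the 4 tongue samples of a series of 8 oral mucosa samples: 2 of dorsal tongue and 2 of ventral tongue, all from wild-type C57BL/6J mice. Each sample had been cut into 20 consecutive sections of 14 micrometres, and the RNA of each section was counted on its own (tomo-seq, with the CEL-seq2 protocol, which tags each captured RNA 3′ end with a section barcode and a unique molecular identifier, UMI). The 4 samples gave 80 of the series' 160 sections, and the 79 with at least 10000 UMIs were kept. Sections 1-5, 6-10, 11-15 and 16-20 were summed in each sample, each band spanning 70 micrometres, and the surfaces were compared band by band. Age, sex and the number of animals behind each sample are not stated in the labels. The p-values therefore measure the spread between these samples, which the labels do not say came from separate animals.

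The upper face of the tongue bears filiform papillae, spiny projections whose keratinocytes make hard keratins and keratin-associated proteins, the same structural proteins that build hair and nail. The underside is covered by a smooth stratified epithelium without papillae, and below both lie connective tissue and striated muscle. Regional identity in such epithelia is known to depend on homeobox transcription factors and on exchange of WNT, BMP, hedgehog and EGF family signals with the stroma.

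The labels do not say which end of the stack faced the surface, so the order was read from the transcripts. Levels are given as CPM (a gene's UMIs per 1000000 UMIs), with TMM scaling for single genes and without it for sums over lists, and in each pair the value of replicate 1 comes first. From sections 1-5 to 16-20 the summed level of 20 keratinocyte markers went from 20507 and 23528 to 15751 and 16314 in the dorsal samples and from 24672 and 20327 to 8917 and 12916 in the ventral samples. Over the same span 37 skeletal muscle markers went from 16151 and 14760 to 34613 and 34340 in the dorsal samples, and from 17910 and 28886 to 57069 and 44330 in the ventral samples. In each sample the keratinocyte sum was thus lower, and the muscle sum higher, in the last band than in the first, and section 1 was read as the surface end. Every band held both tissues, and in the 3 deeper bands both ventral samples held less keratinocyte and more muscle transcript than both dorsal samples. A lower level of a gene in a band can therefore mean fewer cells of a type or less RNA per cell, and these cannot be told apart here.

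**Figure D1:**
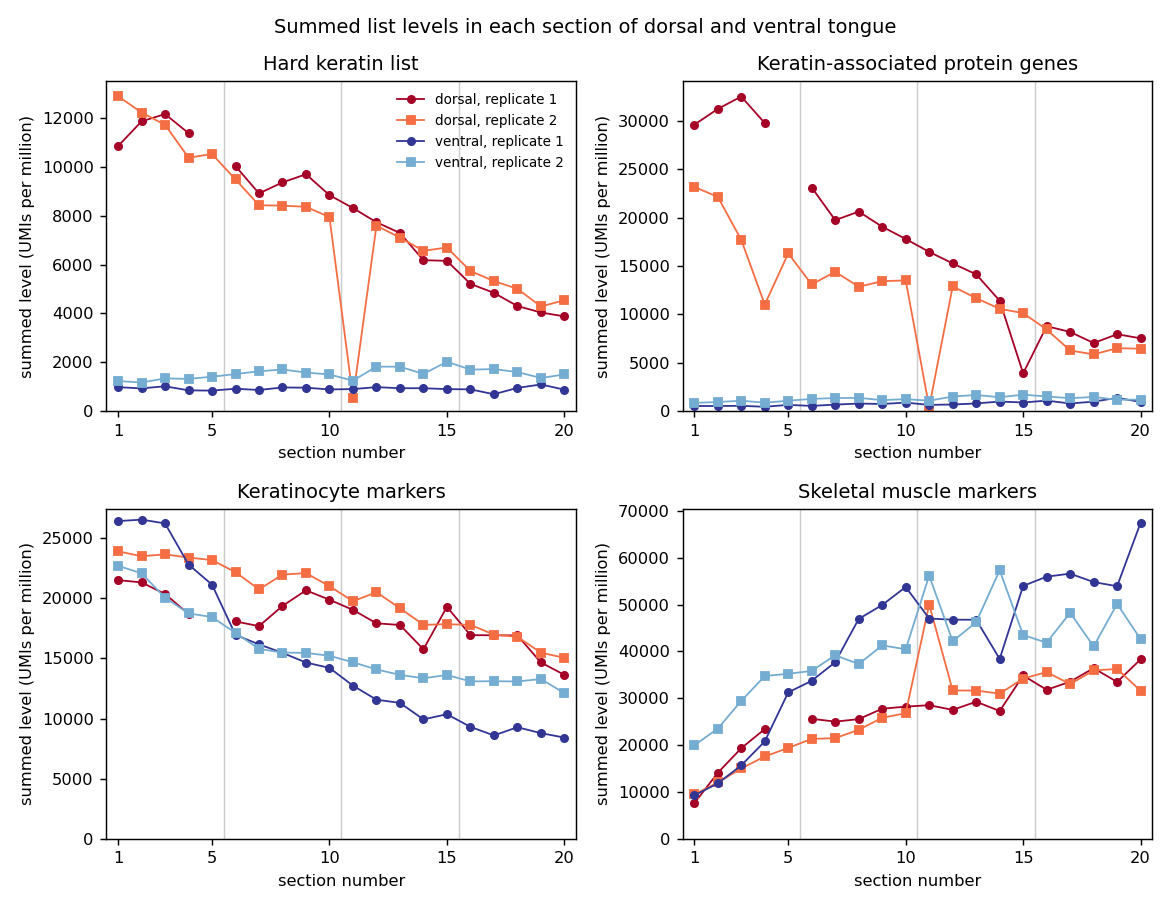
Summed level of the hard keratin list, the keratin-associated protein genes, keratinocyte markers and skeletal muscle markers (CPM of UMIs, vertical axes from 0) against section number, 1 line per sample, with grey lines between the depth bands. For the hair-type keratin genes both dorsal samples lie above both ventral samples and decline with depth, except at section 11 of dorsal replicate 2, which held 14671 UMIs; section 5 of dorsal replicate 1 was left out.

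Total depth was 16182531 to 21230278 UMIs per sample and 2394007 to 6502886 per sample and band, and mitochondrial transcripts took 2.60% to 4.49%. Section 5 of dorsal replicate 1 held 2523 UMIs and was dropped. Section 11 of dorsal replicate 2 passed the limit with 14671 UMIs, of which 8 were of the hard keratin list and 6 of the keratin-associated genes. A section minimum of 100000 UMIs, which leaves it out, gave 389 called genes in sections 11-15 in place of 385. Section 15 of dorsal replicate 1 held 3901 keratin-associated CPM between neighbours at 11408 and 8774, while its hard keratin sum of 6151 lay beside 6177 and 5209. Section 10 of both replicates 2 carried salivary secretory transcripts: Pip, a secreted protein of exocrine glands, had 273 UMIs there in dorsal tongue and 240 in ventral tongue, and at most 2 in any other section of the 4 samples. Without that section the comparison of sections 6-10 gave 558 genes in place of 405. Xist, transcribed from the inactive X chromosome, had 4190 and 2360 UMIs in replicates 1 of dorsal and ventral tongue and 36 and 45 in replicates 2, and the Y-linked Ddx3y had 37 and 33 against 1563 and 2124. Each surface thus held 1 sample with a female pattern, replicate 1, and 1 with a male pattern, replicate 2. The 2 samples of a surface were therefore not from 1 animal, and the spread between them includes any difference between the sexes. No gene had more than 4176 UMIs in a section, near the 4096 different UMIs that 6 bases allow, a length read from these values. In 276 gene and section pairs the count was at or above 4096. The levels of the most abundant genes, among them soft keratins and mitochondrial and muscle genes, are therefore compressed. Reads are given for some of these genes, not for all.

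Between the surfaces, 182 genes were higher in dorsal and 48 in ventral tongue in sections 1-5, of 13210 tested (edgeR's quasi-likelihood test, Benjamini-Hochberg adjusted p under 0.05), together 1.74%. In sections 6-10 it was 280 and 125 of 14100 genes (2.87%), in sections 11-15 it was 223 and 162 of 14127 (2.73%), and in sections 16-20 it was 61 and 14 of 14433 (0.52%). More of the called genes were higher in dorsal than in ventral tongue in each band. An unadjusted p under 0.05, in either direction, was reached by 1577 of 13210, 3146 of 14100, 3276 of 14127 and 2300 of 14433 genes. The unadjusted counts of single lists below are to be read beside these. DESeq2 counts over all genes are given with the processing alternatives. No gene was called in opposite directions in different bands. The 52 genes called higher in dorsal tongue in all 4 bands, of 351 called in any, included 9 hard keratins and 16 keratin-associated genes. The 7 called higher in ventral tongue in all 4 bands, of 244, were Barx1, Fmo9, Klc1, Mab21l2, Pcsk2, Tmem242 and Usf2. All 75 genes called in sections 16-20 were also called, in the same direction, in sections 11-15. The counts rest on 2 samples a side and moved when 1 was left out, the lone sample then being assumed to vary like the pair. Sections 1-5 gave 90 genes without dorsal replicate 1, 115 without dorsal replicate 2 and 582 without ventral replicate 1. Sections 6-10 gave 242 without dorsal replicate 1, 749 without ventral replicate 1 and 692 without ventral replicate 2. Sections 11-15 gave 160 and 184 without dorsal replicates 1 and 2, and 120 and 1025 without ventral replicates 1 and 2. Sections 16-20 gave 132 and 124 without dorsal replicates 1 and 2, and 144 without ventral replicate 2.

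**Figure D2:**
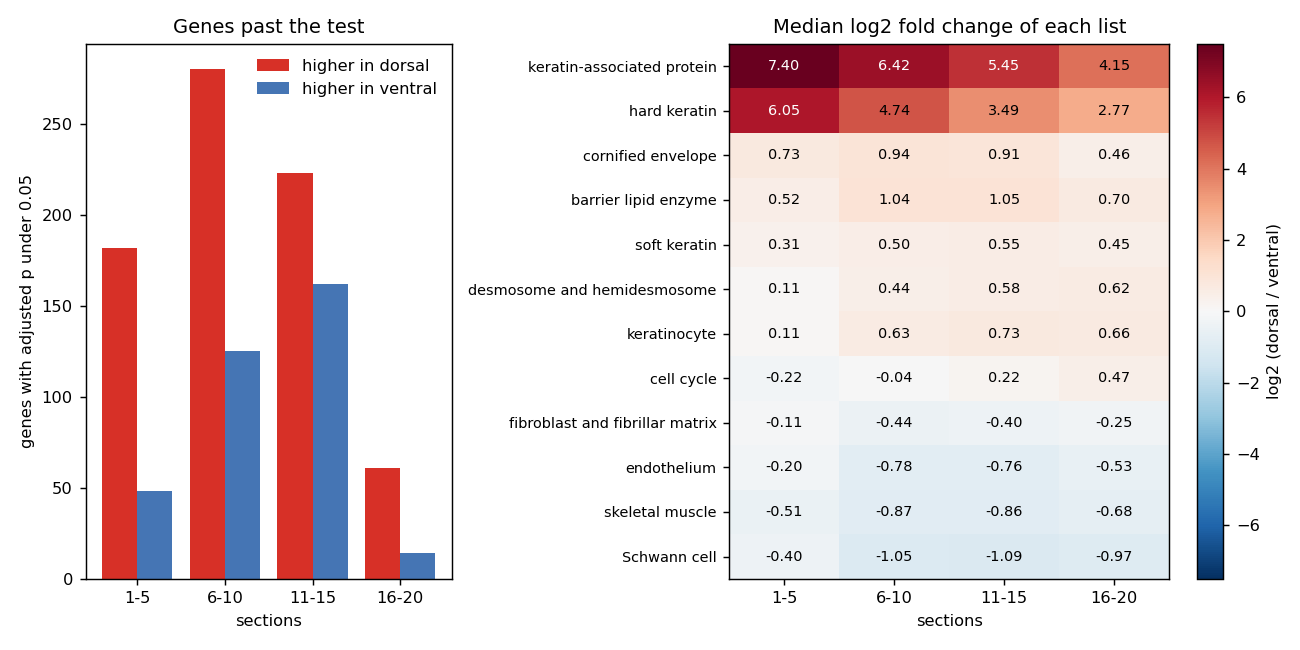
Left, number of genes with adjusted p under 0.05 in each depth band, higher in dorsal (red) or ventral tongue (blue), from 0. Right, median log2 fold change (dorsal over ventral) of the tested members of 12 gene lists in each band, printed in each cell. The keratin-associated list is at 7.40 in sections 1-5 (23 members tested) and at 4.15 in sections 16-20 (19 tested). The hard keratin list is at 6.05 and 2.77 (13 tested in each). The tissue lists below the epithelium are negative in every band.

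Hair-type keratins were among the largest differences between the surfaces, and with the keratin-associated genes they made up 30 of the 182 dorsal calls of sections 1-5. Of 16 hard keratins listed, 15 had a count and 13 passed the filter on low counts. Of these 13, which form the rigid filaments of hair, nail and filiform papillae, 12 were higher in dorsal tongue in each of the first 3 bands and 9 in sections 16-20, and none was higher in ventral tongue. Over all genes, calls towards dorsal tongue made up 1.38%, 1.99%, 1.58% and 0.423% of those tested in the 4 bands. The list's median log2 fold change fell from 6.05 through 4.74 and 3.49 to 2.77, beside medians of all tested genes between -0.02 and 0.01. Krt31, a type I hair cortex keratin, stood at 680.0 and 477 in dorsal and 7.13 and 8.77 in ventral tongue in sections 1-5 (log2 fold change 6.16, standard error 0.36, adjusted p = 0.00208). In sections 16-20 it stood at 140.0 and 147 against 16.8 and 20.4 (log2 fold change 2.94, standard error 0.23, adjusted p = 0.00510). The narrowing came from both sides, since the dorsal level was lower and the ventral level higher in the deep band. Krt86, a type II hair keratin, had the same form, with 887 and 506 in dorsal and 2.52 and 3.62 in ventral tongue in sections 1-5 (log2 fold change 7.75, standard error 0.47, adjusted p = 0.00208). Its deep values were 155 and 143 against 6.86 and 7.38 (log2 fold change 4.38, standard error 0.24, adjusted p = 0.00251). Both pairs lay far apart in every band. Krt33b, another type I hair keratin, was close to absent from ventral tongue, with 1191 and 787 UMIs in dorsal and 0 and 6 in ventral tongue in sections 1-5 (log2 fold change 8.40, standard error 0.66, adjusted p = 0.00295), a fold that rests on a ventral library without a UMI and depends on the prior count. Its type I relative Krt33a had 117 and 101 in dorsal and 0.495 and 0.491 in ventral tongue in sections 6-10 (log2 fold change 7.72, standard error 0.33, adjusted p = 0.00144).

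Krt36 and Krt84, keratins of filiform papillae and of hair and nail, came nearest to the UMI limit among hard keratins and were not absent from ventral tongue. Krt36 had 3163 and 3902 in dorsal and 198 and 413 in ventral tongue in sections 1-5 (log2 fold change 3.53, standard error 0.43, adjusted p = 0.0150) and 1482 and 1747 against 328 and 565 in sections 16-20 (log2 fold change 1.85, standard error 0.31, adjusted p = 0.0821). Reads, which the UMI limit does not compress, gave a log2 fold change of 4.52 in sections 1-5 and 2.34 in sections 16-20. Krt84 went from 2.96 to 1.49 on the log2 scale, and by reads from 3.90 to 1.94. Neither passed the test in the deepest band (adjusted p = 0.0821 and 0.151). Krt87 and Krt81, type II hair keratins, passed in all 4 bands, with log2 fold changes from 6.10 and 5.77 in the first to 2.78 and 2.60 in the last. Krt73, a keratin of the inner root sheath of hair, stood outside the list and had 28 and 22 UMIs in dorsal and 1 and 0 in ventral tongue in sections 11-15 (log2 fold change 5.36, standard error 0.80, adjusted p = 0.0238). The only hard keratin that passed in no band was Krt32, a hair cuticle keratin. It stood at 304 and 35.9 in dorsal and 354 and 98.5 in ventral tongue in sections 1-5 (log2 fold change -0.41, standard error 0.95, adjusted p = 0.929): replicate 1 was high and replicate 2 low on both surfaces, so that the surfaces overlapped.

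Keratin-associated proteins, the sulphur-rich or glycine-rich matrix in which hard keratin filaments are embedded, went with them. Of 40 Krtap genes with a count, 23 passed the filter on low counts in sections 1-5 and 19 in each deeper band. Some passed it only through dorsal tongue, such as Krtap4-13 with no ventral UMI in sections 1-5, so the counts are a description of the tested members. Of the 23 tested in sections 1-5, 18 were higher in dorsal tongue, then 19 of 19, 19 of 19 and 16 of 19, and none was higher in ventral tongue. The median log2 fold change of the tested members was 7.40, 6.42, 5.45 and 4.15. The first median is over 23 members and the others over 19, so it is not of the same genes. Members of this family are near copies of each other, so the split of reads between single members is uncertain. The sum was 30870 and 18133 CPM in dorsal tongue against 541 and 970.2 in ventral tongue in sections 1-5, and 7918 and 6626 against 1050 and 1345 in sections 16-20. Krtap9-1 had 2139 and 803 in dorsal and 0.839 and 3.81 in ventral tongue in sections 1-5 (log2 fold change 9.09, standard error 0.81, adjusted p = 0.00383). In sections 16-20 its values were 495 and 285 against 3.30 and 2.64 (log2 fold change 7.04, standard error 0.42, adjusted p = 0.00251). Dorsal replicate 1 exceeded dorsal replicate 2 in each band, and both lay far above the ventral samples. Krtap13 had 3299 and 2960.0 in dorsal and 92.7 and 189.7 in ventral tongue in sections 1-5 (log2 fold change 4.46, standard error 0.43, adjusted p = 0.00571), and by reads a log2 fold change of 5.40. Krtap3-1, Krtap3-3 and Krtap4-16 had log2 fold changes of 4.09, 3.50 and 6.78 in sections 1-5 and 1.59, 1.72 and 3.84 in sections 16-20, where Krtap3-3 missed the threshold (adjusted p = 0.106). Many of the Krtap genes lie in a cluster on chromosome 11. Between the first and last Krtap gene of chromosome 11 (GRCm38, 99550130 to 99993994) 44 genes had a count. In sections 6-10 and in sections 11-15, 30 of the 44 were tested and these 30 were higher in dorsal tongue, 13 of them models with Gm numbers. Sections 1-5 gave 27 of 32 tested and sections 16-20 gave 24 of 30. Here too some genes passed the filter only through their dorsal level. Gm11564 had 763 and 200 UMIs in dorsal and none in ventral tongue in sections 1-5, at least 290.1-fold higher against a floor of 3 UMIs over both ventral samples (adjusted p = 0.0253). Gm11555 had 431 and 127 UMIs in dorsal and none in ventral tongue in sections 6-10, by the same floor at least 169.6-fold higher (adjusted p = 0.0229). Gm11559 had 359.6 and 145 in dorsal and 0.177 and 0.646 in ventral tongue in sections 11-15 (log2 fold change 9.25, standard error 0.71, adjusted p = 0.000810).

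Because these genes moved together, their promoters are shown beside those of 2 genes, chosen by hand from the 7 that were higher in ventral tongue in all bands. The sequences are RefSeq's for GRCm38.p6, 250 bases before to 50 after the annotated start, and capitals mark TATAAA or TATATAA on either strand. The first 4 are the 2 hard keratins and 2 Krtap genes with the highest dorsal level among those in the table.
Krt36: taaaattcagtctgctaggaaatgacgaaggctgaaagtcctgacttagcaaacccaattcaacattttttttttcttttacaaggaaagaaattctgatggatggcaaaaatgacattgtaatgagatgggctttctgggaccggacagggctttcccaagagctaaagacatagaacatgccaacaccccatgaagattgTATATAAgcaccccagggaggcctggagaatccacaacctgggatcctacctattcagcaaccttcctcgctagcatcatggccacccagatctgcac
Krt84: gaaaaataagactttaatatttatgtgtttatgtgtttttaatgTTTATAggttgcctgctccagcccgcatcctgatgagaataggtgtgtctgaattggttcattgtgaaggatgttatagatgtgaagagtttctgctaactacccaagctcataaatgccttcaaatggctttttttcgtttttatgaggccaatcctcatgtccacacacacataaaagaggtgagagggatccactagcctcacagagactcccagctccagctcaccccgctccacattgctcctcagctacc
Krtap13: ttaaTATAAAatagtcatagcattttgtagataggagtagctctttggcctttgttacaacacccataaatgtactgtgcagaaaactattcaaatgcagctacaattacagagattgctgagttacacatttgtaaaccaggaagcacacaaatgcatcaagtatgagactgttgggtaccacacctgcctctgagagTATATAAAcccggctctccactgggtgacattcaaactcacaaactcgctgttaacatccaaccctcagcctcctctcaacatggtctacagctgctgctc
Krtap3-3: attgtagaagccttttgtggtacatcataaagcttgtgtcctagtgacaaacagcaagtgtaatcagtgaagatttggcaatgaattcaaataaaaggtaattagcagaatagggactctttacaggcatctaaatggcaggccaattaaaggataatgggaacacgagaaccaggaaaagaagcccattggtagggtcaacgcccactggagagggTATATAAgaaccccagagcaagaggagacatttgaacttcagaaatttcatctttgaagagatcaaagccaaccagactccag
Barx1: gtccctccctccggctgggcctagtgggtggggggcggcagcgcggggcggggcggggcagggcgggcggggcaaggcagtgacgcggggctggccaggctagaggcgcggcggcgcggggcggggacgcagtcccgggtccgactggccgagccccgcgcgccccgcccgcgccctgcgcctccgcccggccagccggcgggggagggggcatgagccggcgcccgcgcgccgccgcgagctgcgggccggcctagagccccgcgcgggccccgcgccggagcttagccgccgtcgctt
Tmem242: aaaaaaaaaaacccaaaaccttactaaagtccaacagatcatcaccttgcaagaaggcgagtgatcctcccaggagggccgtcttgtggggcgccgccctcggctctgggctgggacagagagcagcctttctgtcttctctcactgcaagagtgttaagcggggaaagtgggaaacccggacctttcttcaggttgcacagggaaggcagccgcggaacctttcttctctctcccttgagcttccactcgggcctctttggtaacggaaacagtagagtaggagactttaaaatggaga
They lie at chr11:100105577-100105876 (- strand) for Krt36, chr15:101532771-101533070 (- strand) for Krt84, chr16:88751579-88751878 (- strand) for Krtap13, chr11:99550814-99551113 (- strand) for Krtap3-3, chr13:48662786-48663085 (+ strand) for Barx1, chr17:5440211-5440510 (- strand) for Tmem242. TATAAA or its reverse complement was in 6 of the 9 hard keratin promoters in the table, in 32 of 36 Krtap promoters and in 13.6% of all 32851 promoters of that length. TATATAA, which can overlap TATAAA, was in 2, in 14 and in 3.2%. One or the other was in 8 of 9, in 36 of 36 and in 15.1%. Neither was in the 2 ventral promoters shown, which are too few to set beside a share of 15.1%. In Krt84 the match was TTTATA, starting at base 45 of the 300. The second motif was added after the first sequences were seen, and a match is a description of these letters only.

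Some regulators and partners known from hair and filiform papilla cells differed too. Of 14 or 15 tested, 4, 6, 5 and 0 were higher in dorsal tongue, with a median near 1 in each band (1.03, 1.00, 1.00 and 0.87), and 1 was higher in ventral tongue, in sections 11-15. Of all genes tested, 1.38%, 1.99%, 1.58% and 0.423% were called towards dorsal tongue in the 4 bands. The shares called towards ventral tongue were 0.363%, 0.887%, 1.15% and 0.097%. At an unadjusted p under 0.05, 8 were higher in dorsal and 1 in ventral tongue in sections 16-20 among the genes of this list, and DESeq2 called 5 and 0. Hoxc13, a homeobox factor that switches on hair keratin genes, had 56.5 and 106 in dorsal and 4.20 and 5.15 in ventral tongue in sections 1-5 (log2 fold change 4.09, standard error 0.41, adjusted p = 0.00656). It had 33.4 and 50.5 against 2.54 and 12.3 in sections 16-20 (log2 fold change 2.44, standard error 0.60, adjusted p = 0.174). The surfaces did not overlap at either depth, but the ventral pair was spread more widely in the deeper band. Msx2 and Dlx3, homeobox factors of hair matrix and differentiating epidermis, stood at 47 and 46.2 in dorsal and 1.68 and 4.19 in ventral tongue (log2 fold change 3.84, standard error 0.40, adjusted p = 0.00694) and at 58.4 and 100.3 in dorsal and 15.9 and 19.3 in ventral tongue (log2 fold change 2.16, standard error 0.34, adjusted p = 0.0346) in sections 1-5. Foxq1, needed for normal hair shaft structure, passed in the second band, with 109.9 and 178 in dorsal and 48.5 and 38.8 in ventral tongue in sections 6-10 (log2 fold change 1.72, standard error 0.29, adjusted p = 0.0398). Ovol1, a zinc finger factor of epithelial differentiation, and Foxn1, the factor missing in nude mice, were higher in sections 6-10 with log2 fold changes of 1.19 and 1.53. Tchhl1, a trichohyalin-like gene, had 83 and 131 UMIs in dorsal and none in ventral tongue in sections 11-15, at least 70.5-fold higher against the floor of 3 UMIs over both ventral samples (adjusted p = 0.00734). The exception was Crym, a thyroid hormone binding protein, with 1.70 and 1.87 in dorsal and 6.55 and 8.61 in ventral tongue in sections 11-15 (log2 fold change -2.07, standard error 0.42, adjusted p = 0.0478).

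**Figure D3:**
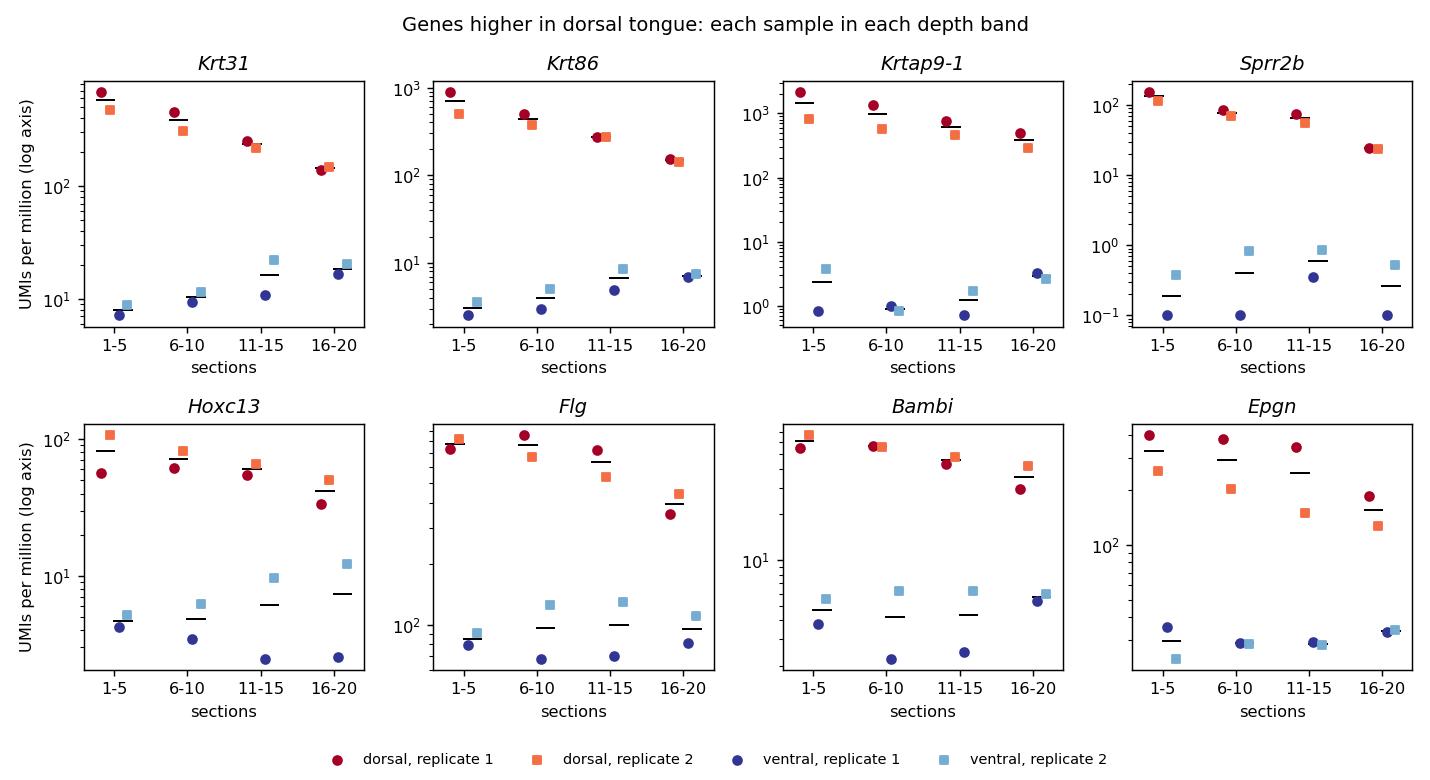
Level of 8 genes in each sample (points, CPM of UMIs on log axes; values of 0 are drawn at 0.1) in the 4 depth bands, with black bars for the mean of the 2 samples of a surface. Both dorsal samples lie above both ventral samples in each panel and band, and in each panel the log2 fold change is smaller in sections 16-20 than in sections 1-5, for Krt31 2.94 against 6.16.

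The cornified envelope, the cross-linked protein shell of dead surface keratinocytes, differed by member. In sections 1-5, 19 of 52 tested members were higher in dorsal and 1 in ventral tongue, then 16 and 0 of 51, 11 and 1 of 50, and 3 and 0 of 51, with list medians of 0.73, 0.94, 0.91 and 0.46. Of all genes tested, 1.38%, 1.99%, 1.58% and 0.423% were called towards dorsal tongue. Towards ventral tongue the shares were 0.363%, 0.887%, 1.15% and 0.097%. Flg, filaggrin, which aggregates keratin filaments, passed in all bands: it had 735 and 818 in dorsal and 79.3 and 90.7 in ventral tongue in sections 1-5 (log2 fold change 3.19, standard error 0.27, adjusted p = 0.00295) and 349 and 440.3 against 81.3 and 110.4 in sections 16-20 (log2 fold change 2.04, standard error 0.26, adjusted p = 0.0288). Its relative Crnn, cornulin, had 553 and 681 in dorsal and 72.6 and 129 in ventral tongue in sections 1-5 (log2 fold change 2.61, standard error 0.35, adjusted p = 0.0212). Sprr2b, a small proline-rich crosslinking protein, was scarce in ventral tongue, with 551 and 453 UMIs in dorsal and 0 and 2 in ventral tongue in sections 1-5, and a log2 fold change of 6.75 ± 0.44 (SE) in sections 11-15 (adjusted p = 0.000260). In all, 10 late cornified envelope genes of the Lce1 family, which are near copies, were among the calls of sections 1-5. Lce1g had 2359.5 and 1982 in dorsal and 428 and 495 in ventral tongue there (log2 fold change 2.23, standard error 0.27, adjusted p = 0.0153) and Lce1i had 2728 and 2183 in dorsal and 764 and 839.8 in ventral tongue (log2 fold change 1.61, standard error 0.27, adjusted p = 0.0449). By sections 16-20 Lce1i stood at 1106 and 1058 against 854 and 982 (log2 fold change 0.24, adjusted p = 0.621). Sprr1a went the other way. It had 323 and 483 in dorsal and 4166 and 1844 in ventral tongue in sections 1-5 (log2 fold change -2.90, standard error 0.47, adjusted p = 0.0385), with both ventral samples above both dorsal ones in each band. Sprr1b, its close relative, was among the genes higher in dorsal tongue in the first 3 bands. Sprr3 reached 3729 UMIs in a single section, near the UMI limit, and was not called by UMIs in sections 1-5. By reads its log2 fold change there was -2.34 (edgeR adjusted p = 0.0389, as an alternative). Estimated transcripts gave -2.19 (adjusted p = 0.0620). In sections 16-20 reads gave -0.83. Lor, another member of the list, reached 4101 UMIs in a single section. By reads its log2 fold change in sections 6-10 was 1.58 (edgeR adjusted p = 0.0385, as an alternative). Estimated transcripts gave 1.65 (adjusted p = 0.0774), and Lor did not pass by reads in the other bands.

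Spink6, an inhibitor of the kallikrein proteases that shed surface keratinocytes, had 264 and 155 UMIs in dorsal and 0 and 1 in ventral tongue in sections 1-5, and still 7.51 and 7.0 in dorsal and 0.762 and 0.703 in ventral tongue in sections 16-20 (log2 fold change 3.28, standard error 0.45, adjusted p = 0.0416). Chil4, a secreted chitinase-like protein, was named in sections 11-15, where it had 33.6 and 298 in dorsal and 0.531 and 3.44 in ventral tongue (log2 fold change 6.43, standard error 1.18, adjusted p = 0.0386). Dorsal replicate 2 was far above dorsal replicate 1, and without ventral replicate 1 the adjusted p was 0.144. In ventral replicate 2, section 18 alone held 570 of its 681 Chil4 UMIs.

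Among soft keratins, 0, 2, 2 and 0 of about 20 tested members passed, all towards dorsal tongue, with list medians of 0.31, 0.50, 0.55 and 0.45. In sections 1-5 and 16-20, 8 and 6 had an unadjusted p under 0.05 towards dorsal tongue and 1 and 0 towards ventral tongue, and DESeq2 called 5 and 5, all towards dorsal tongue. Of all genes tested, edgeR called 1.38%, 1.99%, 1.58% and 0.423% towards dorsal tongue in the 4 bands. The pair that passed was Krt16 and Krt17, stress keratins also made by papillae and hair follicles. Krt16 had 3510.5 and 3994 in dorsal and 1079 and 1427 in ventral tongue in sections 6-10 (log2 fold change 1.58, standard error 0.22, adjusted p = 0.0250) and Krt17 had 1427 and 1962 in dorsal and 333 and 533 in ventral tongue (log2 fold change 1.97, standard error 0.30, adjusted p = 0.0317). Krt16 reached 4001 UMIs in a single section, near the limit of 4096, and reads gave a log2 fold change of 2.96 in place of 1.58. Krt6a, a stress keratin partner of Krt16, was at the limit and differed by scale. By UMIs it had 4126 and 4202 in dorsal and 3605 and 2836 in ventral tongue in sections 6-10 (log2 fold change 0.37, standard error 0.20, adjusted p = 0.328). By reads it stood at 18302 and 18573 CPM in dorsal against 4357 and 4254 in ventral tongue, a log2 fold change of 2.25 (adjusted p = 0.0124, as an alternative), and estimated transcripts also gave 2.25 (adjusted p = 0.040). Krt6b behaved alike, with 2.30 by reads (adjusted p = 0.0256). Krt4 and Krt13, the keratin pair of moist oral epithelium, were both held at the UMI limit. Their read-based log2 fold changes in the 4 bands lay between -0.58 and 0.44 for Krt4 and between 0.16 and 0.76 for Krt13, and none passed the test.

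Some barrier lipid, adhesion and defence genes passed, none of them in sections 16-20. Over all genes, dorsal calls made up 1.38%, 1.99%, 1.58% and 0.423% of those tested in the 4 bands. Among 17 enzymes of barrier lipid synthesis, 0, 1, 2 and 0 were higher in dorsal tongue and none in ventral tongue, with medians of 0.52, 1.04, 1.05 and 0.70. Unadjusted p-values under 0.05 towards dorsal tongue numbered 3, 14, 15 and 12, and DESeq2 calls 1, 11, 12 and 3. Smpd3, a neutral sphingomyelinase, had 174 and 146 in dorsal and 53 and 63.5 in ventral tongue in sections 6-10 (log2 fold change 1.45, standard error 0.22, adjusted p = 0.0317), and Elovl4, which elongates very long fatty acids, had 762 and 792 in dorsal and 324 and 393 in ventral tongue in sections 11-15 (log2 fold change 1.12, standard error 0.22, adjusted p = 0.0469). Of 21 or 22 desmosome and hemidesmosome genes, 1, 2, 3 and 0 were higher in dorsal tongue, and in sections 16-20 the unadjusted p was under 0.05 for 7 and DESeq2 called 3. Dsc1 and Dsg1b, desmosomal cadherins of differentiated layers, had 51.3 and 41.9 in dorsal and 7.26 and 15.5 in ventral tongue (log2 fold change 2.04, standard error 0.37, adjusted p = 0.0386) and 104 and 122 in dorsal and 35.1 and 47.2 in ventral tongue (log2 fold change 1.46, standard error 0.26, adjusted p = 0.0349) in sections 11-15, and the plaque protein Pkp3 a log2 fold change of 1.07 (adjusted p = 0.0497). Beside these counts, keratinocyte markers summed to 17707 and 18732 in dorsal and 11047 and 13855 in ventral tongue in sections 11-15, and the list median was 0.73 there against 0.11 in sections 1-5. Their part in these calls was not tested. Among 24 or 25 antimicrobial and alarmin genes, 3, 4, 3 and 0 were higher in dorsal tongue. In sections 16-20 the unadjusted p of these genes was under 0.05 for 7 towards dorsal and 1 towards ventral tongue, and DESeq2 called 4 and 0. Il1f6, an epithelial cytokine of the interleukin 36 family, had 333 and 450.4 in dorsal and 102 and 127 in ventral tongue in sections 1-5 (log2 fold change 1.77, standard error 0.28, adjusted p = 0.0369), and Defb3, a beta-defensin, had 179 and 184 in dorsal and 13.4 and 36.4 in ventral tongue (log2 fold change 2.82, standard error 0.45, adjusted p = 0.0369). Wfdc2, a secreted protease inhibitor, and the alarmin Il18 were higher in sections 6-10 with log2 fold changes of 1.26 and 1.08.

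Signalling genes were called in both directions. Over all genes, calls towards dorsal tongue made up 1.38%, 1.99%, 1.58% and 0.423% of those tested in the 4 bands. Calls towards ventral tongue made up 0.363%, 0.887%, 1.15% and 0.097%. In the EGF and FGF families, 1, 2, 2 and 1 of 26 to 28 tested members were higher in dorsal tongue and none in ventral tongue. Epgn, epigen, a ligand of the EGF receptor, had 400.5 and 254 in dorsal and 35.3 and 23.6 in ventral tongue in sections 1-5 (log2 fold change 3.49, standard error 0.36, adjusted p = 0.00695) and 186 and 127 against 33.3 and 33.9 in sections 16-20 (log2 fold change 2.22, standard error 0.26, adjusted p = 0.0264). It passed in all 4 bands. Ereg, epiregulin, another ligand of that receptor, had 134 and 131 in dorsal and 37.1 and 39.4 in ventral tongue in sections 6-10 (log2 fold change 1.79, standard error 0.20, adjusted p = 0.0133). In the BMP and TGF-beta list, 3, 3, 5 and 1 of 38 to 40 were higher in dorsal tongue and 1, 1, 1 and 0 in ventral tongue. Bambi, a decoy receptor induced by BMP, had 55.1 and 66.7 in dorsal and 3.78 and 5.53 in ventral tongue in sections 1-5 (log2 fold change 3.65, standard error 0.31, adjusted p = 0.00304) and passed in all bands, while Id1, a classical BMP target, had 412 and 437 in dorsal and 138 and 170.3 in ventral tongue in sections 11-15 (log2 fold change 1.46, standard error 0.23, adjusted p = 0.0276) and Id4 a log2 fold change of 1.43. The ventral call was Grem1, a secreted BMP antagonist of stroma. It had no UMI in dorsal and 36 and 55 in ventral tongue in sections 1-5, at least 33.6-fold higher by the floor of 3 UMIs over both dorsal samples (adjusted p = 0.0153), and 15 and 22 UMIs against 1 and 6 in sections 16-20 (adjusted p = 0.183).

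In the WNT list, 2, 3, 3 and 0 of 45 or 46 genes were higher in dorsal tongue and 2, 4, 2 and 0 in ventral tongue. In sections 16-20, where edgeR called none, 14 and 7 had an unadjusted p under 0.05 and DESeq2 called 5 and 1. Of all genes tested, edgeR called 1.38%, 1.99%, 1.58% and 0.423% towards dorsal tongue. Towards ventral tongue it called 0.363%, 0.887%, 1.15% and 0.097%. Sfrp1, a secreted inhibitor which binds and sequesters WNT ligands, had 51.7 and 51.3 in dorsal and 353 and 204 in ventral tongue in sections 1-5 (log2 fold change -2.43, standard error 0.33, adjusted p = 0.0215). By sections 16-20 it stood at 87.4 and 78.2 against 158 and 128 (log2 fold change -0.79, standard error 0.22, adjusted p = 0.200). Its relatives Sfrp2, Sfrp5 and Frzb were each called towards ventral tongue in at least 1 band. On the dorsal side stood Wnt5a, a non-canonical ligand, with 72.3 and 58 in dorsal and 17.8 and 19.5 in ventral tongue in sections 6-10 (log2 fold change 1.80, standard error 0.23, adjusted p = 0.0204), and Apcdd1, a membrane inhibitor of WNT signalling known from hair follicles, with 543 and 411 in dorsal and 137 and 130.2 in ventral tongue (log2 fold change 1.84, standard error 0.23, adjusted p = 0.0204). Sostdc1, an antagonist of both WNT and BMP, had a log2 fold change of 1.80 in sections 11-15 (adjusted p = 0.0308). In the hedgehog and Notch list of 23 to 27 genes, 1, 1, 1 and 0 passed in each direction. In sections 16-20, 5 and 3 had an unadjusted p under 0.05, and DESeq2 called 0 and 1. Hhip, a hedgehog-binding inhibitor and target, had 20.3 and 23.1 in dorsal and 3.78 and 4.0 in ventral tongue in sections 1-5 (log2 fold change 2.46, standard error 0.33, adjusted p = 0.0200), and Jag1, a Notch ligand, a log2 fold change of 1.37 in sections 11-15. Dlk1, a Notch-related stromal protein, was the ventral one, with 2.50 and 2.56 in dorsal and 33.2 and 39.6 in ventral tongue in sections 1-5 (log2 fold change -3.83, standard error 0.33, adjusted p = 0.00304).

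Patterning transcription factors went both ways. Of 37 to 43 tested, 4, 4, 4 and 0 were higher in dorsal tongue and 5, 5, 3 and 2 in ventral tongue. In sections 16-20 the unadjusted p was under 0.05 for 13 towards dorsal and 7 towards ventral tongue, and DESeq2 called 5 and 1. Over all genes, edgeR calls made up 1.38%, 1.99%, 1.58% and 0.423% towards dorsal tongue in the 4 bands. Towards ventral tongue the shares were 0.363%, 0.887%, 1.15% and 0.097%. On the dorsal side Tbx3, a T-box factor of epithelial appendages, had 110.4 and 97.2 in dorsal and 18.9 and 17.7 in ventral tongue in sections 1-5 (log2 fold change 2.51, standard error 0.24, adjusted p = 0.00574), and Pax9, required for filiform papillae, had 331 and 294 in dorsal and 115 and 134 in ventral tongue in sections 6-10 (log2 fold change 1.33, standard error 0.22, adjusted p = 0.0354). On the ventral side, Meis2 and Meis1, homeobox cofactors of HOX and PBX proteins, had 5.01 and 4.87 in dorsal and 64.2 and 51.1 in ventral tongue (log2 fold change -3.53, standard error 0.29, adjusted p = 0.00295) and 19.2 and 32.6 in dorsal and 128 and 116 in ventral tongue (log2 fold change -2.23, standard error 0.31, adjusted p = 0.0247) in sections 1-5. Nkx2-3, a homeobox factor of oral and pharyngeal epithelium, had 37.3 and 51.8 in dorsal and 146 and 119 in ventral tongue there (log2 fold change -1.57, standard error 0.27, adjusted p = 0.0490). In sections 16-20 Meis2 had 13.6 and 8.98 in dorsal and 14.5 and 20.4 in ventral tongue (log2 fold change -0.63, adjusted p = 0.390). Barx1 and Alx1, homeobox factors of craniofacial mesenchyme, passed in the deepest band. In sections 16-20 Barx1 had 2.76 and 2.59 in dorsal and 17.5 and 13.9 in ventral tongue (log2 fold change -2.54, standard error 0.32, adjusted p = 0.0288) and Alx1 had 0.460 and 0.456 in dorsal and 6.60 and 7.38 in ventral tongue (log2 fold change -3.87, standard error 0.48, adjusted p = 0.0278). Sox21, a SOX family factor of differentiating epithelium, was not in the list but among the largest ventral differences of sections 1-5, with 1.39 and 3.85 in dorsal and 52.5 and 48.8 in ventral tongue (log2 fold change -4.24, standard error 0.43, adjusted p = 0.00656).

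The ventral genes named by size of difference were mostly not epithelial structural genes. Tmem242, a mitochondrial membrane protein involved in assembly of ATP synthase, ranked first or second in every band. It stood at 3.62 and 3.33 in dorsal and 93.6 and 96.3 in ventral tongue in sections 1-5 (log2 fold change -4.76, standard error 0.28, adjusted p = 0.00208). In sections 16-20 it stood at 2.30 and 1.83 against 203 and 176 (log2 fold change -6.51, standard error 0.29, adjusted p = 0.00223). The 2 samples of a surface were close to each other and the surfaces lay far apart at each depth. Usf2, a widely expressed helix-loop-helix factor, had 9.54 and 7.26 in dorsal and 73.7 and 72.1 in ventral tongue in sections 11-15 (log2 fold change -3.10, standard error 0.27, adjusted p = 0.00174), and Klc1, a kinesin light chain, had 41.3 and 32.4 in dorsal and 152 and 149.9 in ventral tongue in sections 16-20 (log2 fold change -2.03, standard error 0.23, adjusted p = 0.0209). In sections 16-20 the adjusted p of Usf2 and Klc1 without ventral replicate 1 was 0.0789 and 0.0545. Fmo9, a flavin monooxygenase gene, had 0.278 and 1.28 in dorsal and 92.3 and 119 in ventral tongue in sections 1-5 (log2 fold change -6.99, standard error 0.49, adjusted p = 0.00238) and 1.99 and 3.35 against 26.9 and 57.6 in sections 16-20 (log2 fold change -3.98, standard error 0.48, adjusted p = 0.0272). Lgals7, galectin-7 of stratified epithelia, was the only keratinocyte marker called towards ventral tongue. It had 111 and 131 in dorsal and 721 and 1313 in ventral tongue in sections 1-5 (log2 fold change -3.07, standard error 0.37, adjusted p = 0.0142), with ventral replicate 2 well above ventral replicate 1. Of the 20 keratinocyte markers, 15 had a fold change towards dorsal tongue in those sections, with a list median of 0.11. Mal, a raft protein of epithelial and myelin membranes, had 15.6 and 15.4 in dorsal and 248 and 81 in ventral tongue in sections 1-5 (log2 fold change -3.40, standard error 0.55, adjusted p = 0.0382), and without dorsal replicate 1 or 2 its adjusted p was 0.204 or 0.212. Pxmp2, a peroxisomal membrane channel, had 9.70 and 16.5 in dorsal and 49.8 and 65.8 in ventral tongue in sections 6-10 (log2 fold change -2.14, standard error 0.32, adjusted p = 0.0297). The long non-coding Gm49668 had 6.30 and 10.5 in dorsal and 55.8 and 51.2 in ventral tongue in sections 11-15 (log2 fold change -2.68, standard error 0.31, adjusted p = 0.00842). Gm15543, annotated as an antisense gene, had a log2 fold change of -2.26 in sections 16-20, and as the counting is not stated to use strand its reads cannot be told from those of an overlapping gene.

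**Figure D4:**
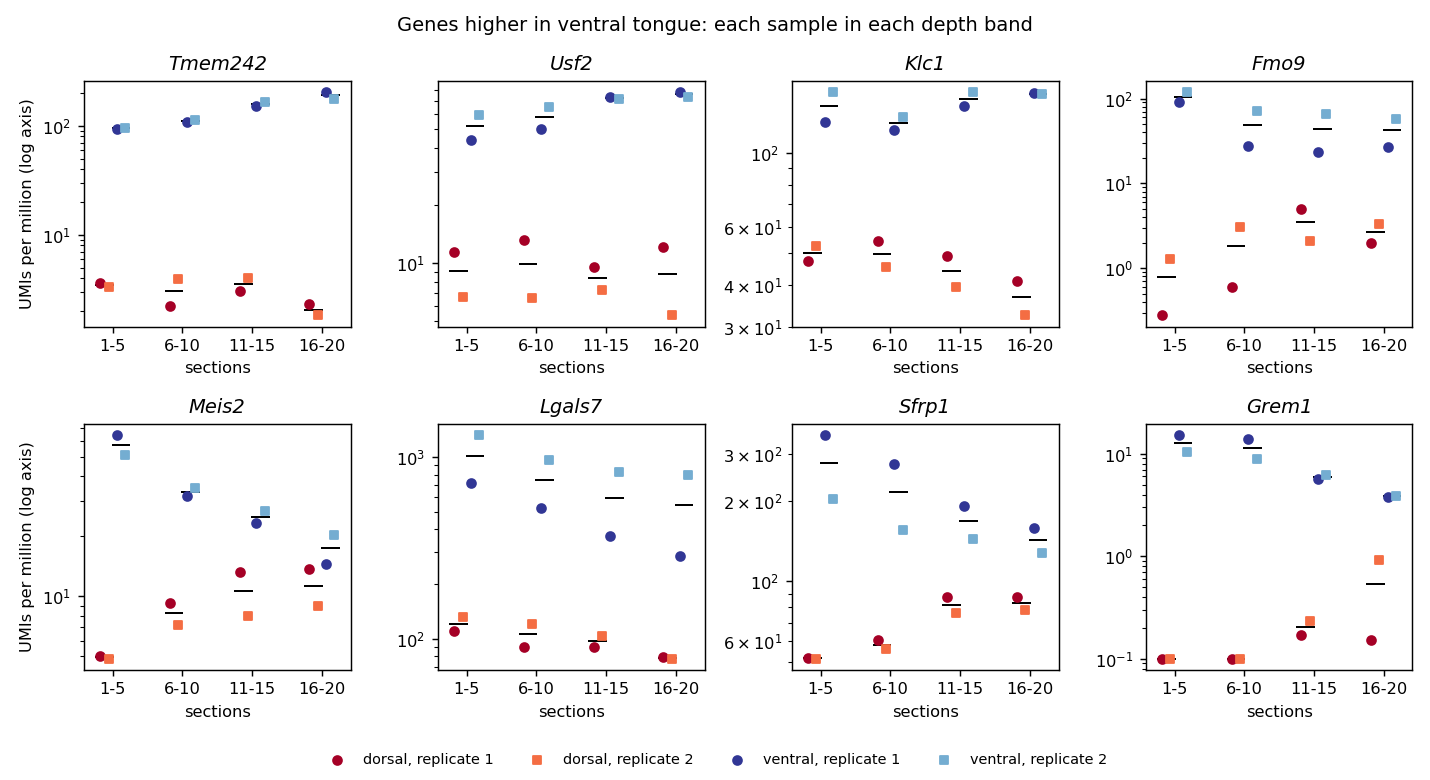
Level of 8 genes in each sample (points, CPM of UMIs on log axes; values of 0 are drawn at 0.1) in the 4 depth bands, with black bars for the mean of the 2 samples of a surface. Tmem242, Usf2 and Klc1 keep or widen their distance with depth, whereas the surfaces approach each other for Meis2, Sfrp1 and Grem1.

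Lists for tissue below the epithelium leaned towards ventral tongue. Of 31 to 35 skeletal muscle genes tested, 0, 1, 7 and 0 were higher in ventral and none in dorsal tongue, with list medians of -0.51, -0.87, -0.86 and -0.68. At an unadjusted p under 0.05, 5, 22, 22 and 20 were higher in ventral tongue, and DESeq2 called 2, 17, 16 and 6. Of all genes tested, edgeR called 0.363%, 0.887%, 1.15% and 0.097% towards ventral tongue. Pvalb, a calcium buffer of fast fibres, had 162 and 267 in dorsal and 716 and 877 in ventral tongue in sections 11-15 (log2 fold change -1.89, standard error 0.30, adjusted p = 0.0263). Myoz1 and Casq1, a Z-disc protein and the calcium store protein of fast muscle, had log2 fold changes of -1.36 and -1.23 there. The summed muscle level at that depth was 29097 and 32193 in dorsal against 45643 and 47350 in ventral tongue, so that more muscle transcript was present in both ventral samples, and its part in other ventral calls was not tested. Tnnt1, slow troponin T, was the one muscle call of sections 6-10, with 3.43 and 5.37 in dorsal and 21.5 and 26 in ventral tongue (log2 fold change -2.43, standard error 0.33, adjusted p = 0.0229). Among 30 fibroblast and matrix genes, 1 passed in each of sections 6-10 and 11-15, Col14a1, a fibril-associated collagen, with 69.3 and 56.7 in dorsal and 204 and 199.6 in ventral tongue in the latter (log2 fold change -1.68, standard error 0.24, adjusted p = 0.0181). Abcc9, a potassium channel subunit of pericytes and muscle, had 51.4 and 68.2 in dorsal and 175 and 139.7 in ventral tongue (log2 fold change -1.40, standard error 0.26, adjusted p = 0.0404). The Schwann cell factor Sox10 had a log2 fold change of -1.47 in sections 11-15, where 2 of 13 Schwann cell genes were called (median -1.09). In sections 6-10, Fabp4 of adipocytes and capillaries, Cd163 of tissue macrophages and Mcpt4 of connective tissue mast cells also passed, with log2 fold changes of -1.27, -1.51 and -1.51. Each was the only call of its list there, of 5 adipocyte, 16 macrophage and dendritic cell and 7 lymphocyte and mast cell genes tested. List medians were -1.18, -0.32 and -1.06, and 0, 6 and 2 members had a fold change towards dorsal tongue. None of 19 endothelial genes, Pecam1 among them with a log2 fold change of -0.98 in sections 6-10, passed in any band, with medians of -0.20, -0.78, -0.76 and -0.53; 0, 12, 9 and 6 had an unadjusted p under 0.05 towards ventral tongue, and DESeq2 called 0, 1, 1 and 0.

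Mitochondrially encoded genes were lower in dorsal tongue by median, at -0.33, -0.58, -0.57 and -0.54, and 0, 1, 2 and 0 of 15 to 19 passed, all towards ventral tongue. Unadjusted p-values under 0.05 towards ventral tongue numbered 3, 7, 8 and 5, and DESeq2 calls 1, 3, 2 and 1. Several of these genes were at or near the UMI limit, which shrinks their differences. By reads the ribosomal RNA genes mt-Rnr2 and mt-Rnr1 had log2 fold changes of -2.01 and -1.98 in sections 6-10 (adjusted p = 0.0203 and 0.0393). The methionine transfer RNA gene mt-Tm had 23.4 and 27.2 in dorsal and 82.9 and 128 in ventral tongue in sections 6-10 (log2 fold change -2.06, standard error 0.28, adjusted p = 0.0229). For this list and those that follow, edgeR calls over all genes made up 0.363%, 0.887%, 1.15% and 0.097% towards ventral tongue. Towards dorsal tongue they made up 1.38%, 1.99%, 1.58% and 0.423%. In the retinoid list, 1 gene passed in each direction in sections 11-15: Crabp1, a retinoic acid binding protein, with 289 and 398 in dorsal and 117 and 118 in ventral tongue (log2 fold change 1.55, standard error 0.25, adjusted p = 0.0297), and Aldh1a1, which makes retinoic acid, with 63.5 and 60.2 in dorsal and 209 and 134 in ventral tongue (log2 fold change -1.47, standard error 0.28, adjusted p = 0.0431). Of 20 basal and stem cell markers, 1, 2, 0 and 0 were higher in dorsal tongue. In sections 11-15 and 16-20 the unadjusted p was under 0.05 for 5 and 5 of them towards dorsal and 1 and 0 towards ventral tongue. DESeq2 called 4 and 2 there, all towards dorsal tongue. The edgeR calls were Lgr6, a receptor marking epithelial stem cells, with 24.2 and 36.4 in dorsal and 6.71 and 5.34 in ventral tongue in sections 1-5 (log2 fold change 2.35, standard error 0.35, adjusted p = 0.0298), and Sox9, a factor of appendage progenitors, with a log2 fold change of 1.50 in sections 6-10 (adjusted p = 0.0499). None of 29 cell cycle genes passed in any band by edgeR, with medians of -0.22, -0.04, 0.22 and 0.47. Their unadjusted p-values under 0.05 numbered 0, 1, 0 and 5, and DESeq2 called none. Among all genes tested, such p-values numbered 1577 of 13210, 3146 of 14100, 3276 of 14127 and 2300 of 14433. Mki67 and Top2a, markers of dividing cells, had log2 fold changes of 0.40 and 0.47 in sections 16-20. Taste bud, melanocyte, lymphatic, red blood cell and salivary lists also had no call by edgeR. Over the 4 bands their unadjusted p-values under 0.05 numbered 6, 0, 6, 8 and 3, each counted per gene and band, and DESeq2 called 1 salivary gene towards dorsal and 1 red blood cell gene towards ventral tongue in sections 6-10.

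Whether the difference between the surfaces changed with depth was tested directly, as an interaction over all 16 sums with each sample as a block. Of 15252 genes, 126 passed (0.826%): in 97 the difference moved towards ventral tongue from sections 1-5 to 16-20 (0.636%) and in 29 towards dorsal tongue (0.19%). Hair-type genes led the first group, with 8 of 13 hard keratins, 15 of 24 Krtap genes and 13 of 53 cornified envelope genes, and none of these lists had a member in the second group. Median changes were -2.68, -3.02 and -0.31, beside -0.0048 for all genes tested. Gm11595, in the Krtap region of chromosome 11, changed most among the genes that passed and were named for this comparison, by -4.10 on the log2 scale, followed by Krtap26-1 at -3.93, Krt34 at -3.54, Krt86 at -3.40 and Krt87 at -3.39 (adjusted p = 0.00273, 0.00993, 0.000229, 0.000850 and 1.32e-05). All 5 were still higher in dorsal tongue in sections 16-20. Msx2, Tbx3, Isl1, Lgr6 and Epgn were among the list genes whose dorsal excess also shrank with depth, with changes of -2.07, -1.50, -1.79, -1.42 and -1.34. In the second group Meis2 moved by 2.81 (adjusted p = 0.000850) and Sfrp1 by 1.55 (0.00117). n-R5-8s1, a ribosomal RNA gene, moved by 1.60 through a ventral level that fell from 114 and 54.1 to 29.7 and 27.9. The number of genes depended on single samples, with 2 without dorsal replicate 1, 38 without dorsal replicate 2 and 1491 without ventral replicate 2. It was 1 in a fit without the sample block, in which none of the 10 genes named by size for this comparison passed. None of these 10 changed direction. Keratinocyte markers fell more steeply with depth in ventral than in dorsal tongue, as given above, and their part in these changes was not tested.

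**Figure D5:**
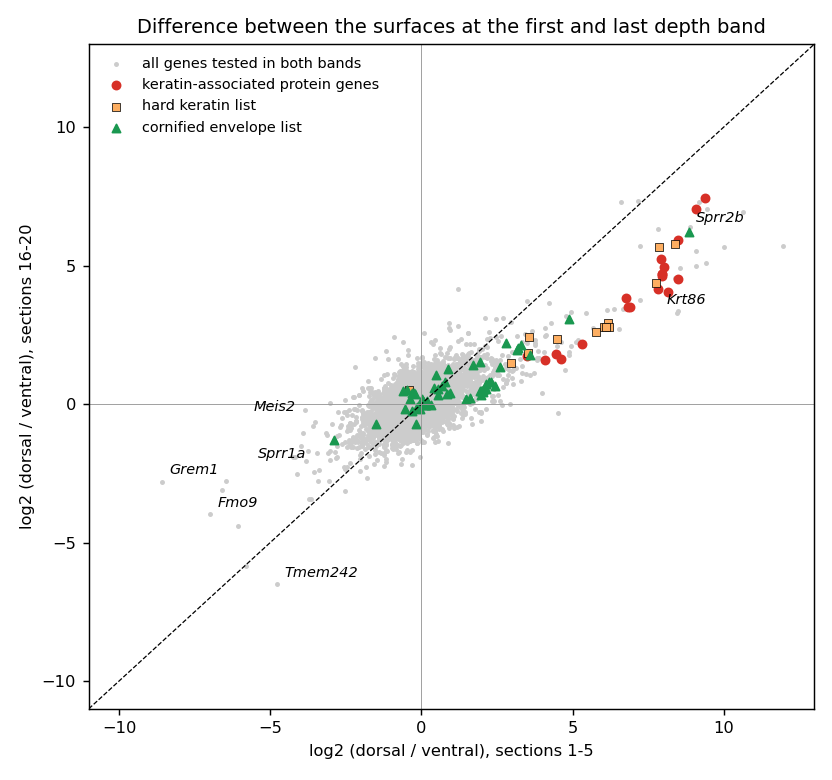
Log2 fold change (dorsal over ventral) of each gene tested in both bands, sections 1-5 on the horizontal and sections 16-20 on the vertical axis, with the line of equal difference dashed. Keratin-associated genes (red), hard keratins (orange squares) and most cornified envelope genes (green) on the dorsal side lie below the line, Krt86 for example at 7.75 and 4.38, whereas Tmem242 lies further towards ventral tongue in the deep band.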

How the data were processed

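The authors deposited 3 tables per sample, each giving genes by 20 sections. UMI counts, read counts and estimated counts of transcripts (UMI counts corrected by the authors for repeated UMIs) were told apart from the deposited values. Per the submitters' processing notes STAR 2.7.9a, Trim Galore 0.6.10 and GRCm38 were used, and per the labels' protocols the libraries followed CEL-seq2. UMI counts were analysed. Read counts and estimated counts, rounded, were alternatives. Of 31369 entries, 384 named several genes and were skipped when genes were named, and 30905 had a GENCODE M21 position. Other oral sites were not fitted.

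Sections under 10000 UMIs were dropped and the rest summed by band. Surfaces were compared in each band with edgeR's quasi-likelihood test (edgeR 4.0.16, limma 3.58.1, R 4.3.3), TMM scaling, filterByExpr and Benjamini-Hochberg adjustment, calling an adjusted p under 0.05. Every adjusted p in the text is from that test unless another is named. A surface by depth term, with sample as a block, tested the change between bands. Scripts were tested on simulated data. Figures used Python 3.11.15 and matplotlib 3.10.9.

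Genes named by size had at least 50 CPM in the higher surface, no overlap and the 5 largest changes a direction, with at most 2 Krtap, Gm or Rik symbols. From each list, up to 4 members that passed, or the 2 highest, were named. Others were chosen after their values were seen. Some genes that the rule names are not reported here. Members and lists were chosen with earlier results of these data known. Alternatives were DESeq2 1.42.0, RLE scaling, scaling without muscle and hard keratin genes, no filter, other units, a section minimum of 100000, the middle 3 sections, 1 fit over all bands, a replicate block, no sample block and leaving out each sample. Listed genes without an entry, such as Krt85 and Sox2, were not analysed here.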

Additional observations from a re-analysis of the deposited data

Results flagged for a closer look

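Slc6a19, an amino acid transporter of intestine and kidney, had a difference between the surfaces that changed sign with depth, by 1.5629 on the log2 scale from sections 1-5 to 16-20 (edgeR's quasi-likelihood test of the interaction, adjusted p = 0.0400). It had 73.1 and 98.5 in dorsal and 204 and 145 in ventral tongue in sections 1-5 (log2 fold change -1.02, adjusted p = 0.202) and 79 and 78 against 45.5 and 56.1 in sections 16-20 (log2 fold change 0.63, adjusted p = 0.254), and neither band passed on its own. Without dorsal replicate 1 the adjusted p was 0.995, without dorsal replicate 2 it was 0.155, without ventral replicate 1 it was 0.0669, and without the sample block it was 0.771.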

How the results depend on the processing

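Of 700 values of the 50 results of genes named by size under the alternatives, 666 kept their side of the threshold, 34 lost the call and 0 reversed, and 33 of the 50 kept it under every alternative. These 50 results were chosen from the same data as called and largest in change, which favours kept calls and unchanged directions. They say little about other genes. The numbers of called genes moved more. Without a filter on low counts sections 1-5, 6-10 and 11-15 gave 857, 1978 and 1872 genes in place of 230, 405 and 385, and the interaction 729 in place of 126. DESeq2 gave 389, 994, 1114 and 430 in the 4 bands and 206 for the interaction. One fit over all bands gave 662, 1128, 1188 and 304. Leaving out 1 sample gave 90 to 582 genes in sections 1-5, 242 to 749 in 6-10, 120 to 1025 in 11-15, 57 to 144 in 16-20 and 2 to 1491 for the interaction. Without the sample block the interaction gave 1. The cause was not tested.

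With the replicate block, the replicate number as a term, the bands gave 639, 2732, 2944 and 1584 genes. Deviations of same-numbered samples correlated across genes by 0.331, 0.462, 0.345 and 0.414 in the 4 bands, but the labels do not say that a number marks a shared animal or day, and there were only 2 pairs. Same-numbered samples shared the Xist and Ddx3y pattern given above, and both replicates 2 the salivary transcripts of section 10. The part of these in the counts was not tested.

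With 2 samples a surface, the smallest exact permutation p of a single value would be above any usual threshold, so all calls borrow the spread over genes. UMIs are molecules tagged in 1 section, the count of cells behind them is unknown, and abundant keratins were compressed by the UMI limit. Chil4 (sections 11-15, adjusted p = 0.144 without ventral replicate 1), Mal, Lgals7, Usf2, Gm49668 and Klc1 each lost a call without 1 sample.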

Other observations

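Some genes outside the lists were called in all 4 bands and are described here, chosen after their values were seen. Lrrc15, a leucine-rich repeat membrane protein, had 498 and 339.6 in dorsal and 11.3 and 11.6 in ventral tongue in sections 1-5 (log2 fold change 5.18, standard error 0.34, adjusted p = 0.00208) and 101 and 102 against 19 and 21.8 in sections 16-20 (log2 fold change 2.31, standard error 0.22, adjusted p = 0.0111). Its difference was thus smaller in the deep band, like that of the hair-type keratins. Prss53, a serine protease known from hair shape variation, had 112 and 99.3 in dorsal and 5.46 and 4.19 in ventral tongue in sections 1-5 (log2 fold change 4.48, standard error 0.29, adjusted p = 0.00208), and Bpifa5, a secreted protein of the BPI family, had 2113 and 2474 in dorsal and 97.4 and 173 in ventral tongue (log2 fold change 4.08, standard error 0.38, adjusted p = 0.00500). Alcam, a cell adhesion molecule, and Samd5, a SAM domain protein, kept about the same log2 fold change, 1.59 and 2.06 in sections 1-5 and 1.65 and 1.79 in sections 16-20.

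On the ventral side, Mab21l2, a developmental regulator, had 0 and 1 UMIs in dorsal and 16 and 59 in ventral tongue in sections 1-5 (adjusted p = 0.0238) and 0 and 2 UMIs in dorsal and 39 and 59 in ventral tongue in sections 16-20 (adjusted p = 0.0270). Pcsk2, a prohormone convertase of neuroendocrine cells, had 6.95 and 9.23 in dorsal and 27.7 and 38.7 in ventral tongue in sections 1-5 (log2 fold change -2.04, standard error 0.32, adjusted p = 0.0373) and a log2 fold change of -2.40 in sections 16-20. For both genes the ventral samples lay above both dorsal samples in every band.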
